A study of Homo sapiens with 12 samples.

Results

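CCGG-poor bins are stretches of 100 kb of the human autosomes in which the sequence CCGG is rare. Each of chromosomes 1 to 22 was cut into bins of 100 kb from its first base, and the reference CCGG sites of a bin were counted as the span of the genome-wide site numbers seen in it. Bins with 5 to 30 reference sites were kept, and the size of tag counts did not enter the choice. Only sites listed with a tag in some library mark the span, however. Outer sites without a tag are missed, so a thinly sampled bin can count as poorer than it is. They numbered 7204 of 26876 autosomal bins with a listed site (26.8%), and the other 19672 bins are called the remaining bins. The median CCGG-poor bin held 21 reference sites, against 72 in the median remaining bin. Together the CCGG-poor bins held 146152 reference sites, or 7.32% of those on the autosomes. Stretches of this kind are commonly gene deserts, but genes were not annotated here in the build of the deposited coordinates, so the label could not be checked and the bins go by their CCGG content alone.

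HELP-tagging libraries of 6 DNA samples were analysed, from lines 786 and 769, both derived from clear cell renal cell carcinoma. Line 786 contributed 2 AA-treated samples and 1 control, and line 769 likewise contributed 2 AA-treated samples and 1 control. AA is ascorbic acid, by the title of the study, and the labels give neither its dose nor its duration nor whether the AA samples of a line were separate cultures. The study addressed what ascorbic acid does to cytosine methylation in renal carcinoma. Each DNA sample was digested once with HpaII and once with MspI, giving 12 libraries.

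HpaII and MspI both recognise CCGG, but HpaII does not cut when the inner cytosine is methylated, whereas MspI cuts either way. The share of HpaII tags in a set of sites over the share of MspI tags in the same set is therefore a relative measure of how open to HpaII the set is, and dividing by MspI also divides out DNA copy number. Ascorbic acid is a cofactor of the TET dioxygenases, which oxidise 5-methylcytosine. In normal cells most isolated CpGs are methylated and dense CpG islands are not, and CpG-poor, gene-poor, late-replicating domains are known as the part of the genome where cancers and cultured lines lose methylation most readily.

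The MspI libraries held 6164334, 6585135 and 9268036 tags in 786 AA replicate 1, 786 AA replicate 2 and 786 control, and 5361577, 3785890 and 12442031 in the same 3 samples of 769. The HpaII libraries held 11054037, 4012468 and 189704 tags in 786 AA replicate 1, 786 AA replicate 2 and 786 control, and 6922795, 3111094 and 5734607 in the same 3 samples of 769. The HpaII library of 786 control was thus the shallowest by far. All shares below are of the autosomal tags of a library. P-values measure the spread between these samples, which may be technical, and all intervals cover counting error only, since amplified tags without molecular identifiers are not independent molecules.

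CCGG-poor bins took a small share of both kinds of library, and in all 6 samples they were sampled thinly. They held 4.13% of the HpaII tags in 786 AA replicate 1 (95% Wilson interval 4.12 to 4.14), 2.46% for 786 AA replicate 2 (2.44 to 2.48) and 2.76% for 786 control (2.68 to 2.84). The same bins held 1.52% of those of 769 AA replicate 1 (1.51 to 1.53), 2.33% of 769 AA replicate 2 (2.31 to 2.35) and 1.21% of 769 control (1.20 to 1.22). Of the MspI tags they held between 2.42% and 3.12%. An MspI library had 0.314 to 0.408 times as many tags per reference site in CCGG-poor bins as in remaining bins. Over all 12 libraries, 31.9% of their reference sites were listed with a tag, against 49.7% in remaining bins. Listing also enters the count of reference sites, and its part in this thin sampling was not tested.

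Most CCGG-poor bins had no HpaII tag in 5 of the 6 samples, all but 786 AA replicate 2. A tag was found in 49.8% of them in 786 AA replicate 1, 51.3% for 786 AA replicate 2 and 7.0% for 786 control, and in 38.0%, 15.2% and 10.5% in AA replicate 1, AA replicate 2 and control of 769. In remaining bins these shares were 86.2%, 86.1% and 50.2% in the 786 samples and 84.4%, 67.7% and 61.7% in the 769 samples, in the same order. HpaII tags in all 6 samples were found in 161 CCGG-poor bins (2.23%), against 43.8% of remaining bins, and 1770 CCGG-poor bins (24.6%) had none in any sample, against 5.22% of remaining bins. Bins with tags in at least 2 of the 786 samples and none in 769 numbered 927 (12.9%), against 4.13% of remaining bins. The reverse pattern was seen in 96 CCGG-poor bins (1.33%), against 0.879% of remaining bins. Library depth differs too, and 786 AA replicate 2 had fewer HpaII tags than 769 AA replicate 1 and 769 control and reached more bins. The part of depth in these shares was not tested.

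With every site counted, the HpaII over MspI share of CCGG-poor bins divided by that of remaining bins was 1.35 in 786 AA replicate 1, 0.874 for 786 AA replicate 2 and 0.881 for 786 control. The ratio came to 0.623 for 769 AA replicate 1, 0.832 for 769 AA replicate 2 and 0.425 for 769 control. The mean was 0.782-fold (log2 -0.35), which an exact two-sided sign-flip permutation over the 6 samples did not separate from no difference (p = 0.188). The 786 samples had ratios of 1.03 ± 0.272 and the 769 samples 0.627 ± 0.204 (SD, n = 3 each), a 1.68-fold difference (exact permutation p = 0.1, the smallest that 3 against 3 allows).

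Much of this rested on single sites, most of them with split counts, that is counts that are not whole numbers. The site at position 141504822 of chromosome 7 (hg19), which has 1 other reference site within its 1 kb window and lies in a bin of 26 reference sites, held 174268 of the 383244 HpaII tags of all CCGG-poor bins in 786 AA replicate 1, or 45.5%. It held 19.2% in 786 AA replicate 2, 33.8% in 786 control, and 14.7%, 42.2% and 7.08% in AA replicate 1, AA replicate 2 and control of 769. Its share of the MspI tags was 7.96%, 6.80% and 17.5% in the 786 samples and 1.97%, 14.6% and 17.4% in the 769 samples, in that order. So it was high in libraries of both enzymes and in both lines. Tags at sites with counts that were not whole made up 54.6%, 28.4% and 42.9% of the HpaII tags of CCGG-poor bins in the 786 samples and 24.2%, 56.1% and 27.4% in the 769 samples, against 8.66% to 13.3% in remaining bins.

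There were 4 more sites with over 1% of the CCGG-poor tags of some library. They lie at 51183128 on chromosome 17, at 10492890 and 10492914 on chromosome 21 and at 202316882 on chromosome 2. The first 3 also had split counts. The site on chromosome 21 at 10492914 reached 12.2% of the CCGG-poor HpaII tags in 769 control. The site on chromosome 2 had whole counts, with 0, 42 and 269 HpaII tags in 786 AA replicate 1, 786 AA replicate 2 and 786 control, and 54, 2 and 0 in the same 3 samples of 769. Shares and ratios of classes of bins or sites and of chromosomes are given below without these 5 sites, a main setting chosen after seeing the data that removes sites from CCGG-poor bins only. The fits over single bins and runs, and the values of single bins and runs, keep every site.

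Without the 5 sites, CCGG-poor bins were less open to HpaII than remaining bins in all 6 samples. Their HpaII over MspI share divided by that of remaining bins was 0.746 in both AA samples of 786 and 0.609 in 786 control. It came to 0.527 for 769 AA replicate 1, 0.480 for 769 AA replicate 2 and 0.414 for 769 control. The mean was 0.573-fold (log2 -0.80, exact two-sided sign-flip permutation p = 0.0312, the smallest that 6 samples allow). This test treats the 6 samples as independent, although they come from only 2 lines and cluster by line. Its p therefore does not extend beyond these samples. Restricting both kinds of bin to sites with whole counts gave 0.763, 0.751 and 0.714 in the 786 samples and 0.534, 0.495 and 0.428 in the 769 samples, with the same p.

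**Figure D1:**
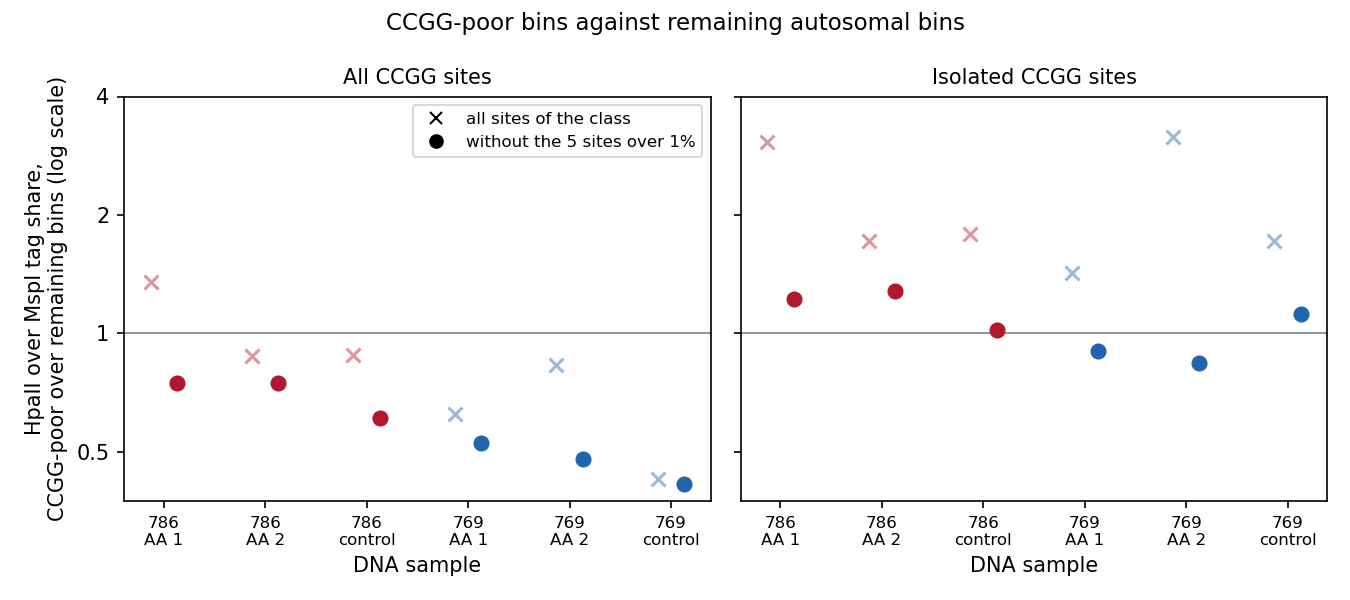
HpaII over MspI tag share of CCGG-poor bins divided by that of remaining bins (y axis, log scale, no unit) in each of the 6 DNA samples (x axis), for all CCGG sites (left) and isolated CCGG sites (right). Crosses count every site and filled circles leave out the 5 sites over 1%. At all sites, the filled circles lie between 0.414 and 0.746, and the 3 of 786 lie above the 3 of 769. At isolated sites, every cross lies above 1 and the filled circles lie on both sides of 1.

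The lines did not overlap in this ratio. It was 0.701 ± 0.0790 in 786 and 0.474 ± 0.0568 in 769 (SD, n = 3 each), a 1.48-fold difference (log2 0.57). The exact permutation p was 0.1, the smallest that 3 against 3 allows, so this design cannot reach 0.05. The MspI share of CCGG-poor bins was itself higher in 786 (log2 0.18, exact permutation p = 0.1). MspI is the denominator of the ratio, so at a given HpaII share a higher MspI share lowers the ratio. The cause of the higher MspI share was not tested.

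Without the 5 sites, each of the 4 AA-treated samples lay above the control of its line. The ratio was 0.746 ± 0.000230 in AA-treated 786 samples (SD, n = 2) against 0.609 in the 786 control, and 0.504 ± 0.0334 in AA-treated 769 samples (n = 2) against 0.414 in the 769 control. These are 1.22-fold and 1.21-fold differences, with a mean of 1.22-fold (log2 0.29, exact permutation within lines p = 0.11, the smallest that 9 arrangements allow). At sites with whole counts the difference was 1.06-fold in 786 and 1.20-fold in 769. With every site counted it was 1.23-fold in 786, where AA replicate 2 (0.874) lay below the control (0.881), and 1.70-fold in 769, with a mean log2 difference of 0.53 (exact permutation p = 0.333). With 1 control per line, the spread of controls is unknown, and the control of 786 rests on 2392 HpaII tags in CCGG-poor bins.

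The lower share in CCGG-poor bins went with the local number of CCGG sites. Isolated sites, with 1 or 2 reference CCGG sites in a window of 1 kb, made up 81.2% of the listed sites in CCGG-poor bins and 38.0% in remaining bins. Only 236 CCGG-poor bins (3.28%) held a cluster of 8 or more sites per kb. Sites were therefore compared with sites of the same local number in remaining bins, without the 5 sites. The local number is counted between listed sites, and a smaller part of the reference sites was listed in CCGG-poor bins (31.9% against 49.7%). Some clustered sites may thus pass as isolated, more so in CCGG-poor bins, and the match is approximate.

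At isolated sites, CCGG-poor bins had HpaII over MspI shares of 0.575, 0.595 and 0.454 in 786 AA replicate 1, 786 AA replicate 2 and 786 control. In 769 the same 3 samples had 0.275, 0.215 and 0.162. Isolated sites of remaining bins had 0.470, 0.463 and 0.445 in the 786 samples and 0.304, 0.256 and 0.145 in the 769 samples. The 786 samples were above the 769 samples in both kinds of bin. CCGG-poor over remaining bins came to 1.22, 1.28 and 1.02 in 786 and 0.902, 0.840 and 1.12 in 769, a mean of 1.05-fold (log2 0.07, exact sign-flip permutation p = 0.469). With the 5 sites counted, the mean was 2.04-fold (exact sign-flip permutation p = 0.0312), so that call rests on them.

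The difference between lines at isolated sites of CCGG-poor bins, relative to remaining bins, was 1.24-fold (log2 0.31, exact permutation p = 0.2). That of AA over control was 0.978-fold (log2 -0.03, exact permutation p = 0.778), a log2 value that was -0.36 without 786 control and 0.297 without 769 control. Both AA samples lay above the control in 786 and both lay below it in 769. The AA effect was larger in 786 than in 769 by 0.66 on the log2 scale (exact permutation p = 0.11, the smallest that 9 arrangements allow). With every site counted, the AA effect was 1.29-fold in 786 and 1.23-fold in 769, and the difference was 0.06 on the log2 scale (exact permutation p = 1).

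At sites with 3 to 7 CCGG in 1 kb, CCGG-poor bins lay above remaining bins in all 6 samples. The ratio came to 1.16, 1.19 and 1.10 in the 786 samples and 1.08, 1.04 and 1.04 in the 769 samples. At the 1530 listed sites with 8 to 15 it was 1.06, 1.13 and 0.884 in the 786 samples and 1.18, 1.04 and 1.04 in the 769 samples. The HpaII over MspI share of these clustered sites in CCGG-poor bins was 1.69, 1.90 and 1.41 in the 786 samples and 2.15, 1.81 and 2.07 in the 769 samples. So clusters of sites within CCGG-poor bins were above the autosomal mean of 1 in every sample. Sites with 16 or more numbered 114 and gave ratios of 0.420 to 0.921.

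**Figure D2:**
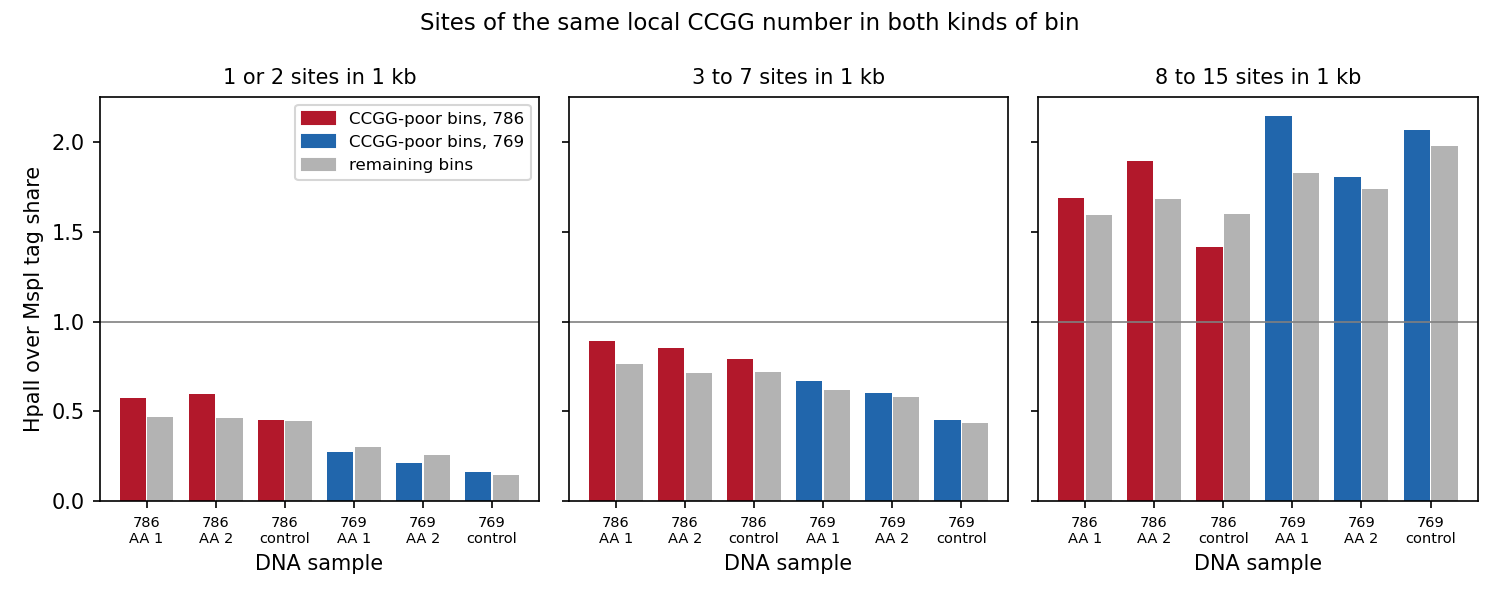
HpaII over MspI tag share (y axis, no unit, 1 is the autosomal mean) of sites with 1 or 2, 3 to 7 and 8 to 15 CCGG sites in 1 kb, in CCGG-poor bins (coloured bars, red for 786 and blue for 769) and in remaining bins (grey bars), for each DNA sample (x axis), without the 5 sites over 1%. Shares climb with local CCGG number in both kinds of bin, and 786 stands above 769 at isolated sites (0.454 to 0.595 against 0.162 to 0.275 in CCGG-poor bins).

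The make-up of the HpaII tags in CCGG-poor bins differed between the lines. Isolated sites gave 52.4%, 54.0% and 49.1% of them in the 786 samples and 33.1%, 27.1% and 23.7% in the 769 samples. Clustered sites with 8 to 15 gave 16.2%, 15.6% and 15.6% in the 786 samples and 29.6%, 33.3% and 39.6% in the 769 samples. Their share of MspI tags was 6.15% to 8.86% over all 6 samples. Remaining bins had the same order of lines, with 10.5% to 11.9% of HpaII tags at isolated sites in 786 and 3.06% to 6.77% in 769, and 37.8% to 39.1% at sites with 8 to 15 in 786 and 45.2% to 48.7% in 769. The order is thus not shown to be particular to CCGG-poor bins.

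The poorest of the CCGG-poor bins were less open than the least poor in all 6 samples. In the 761 bins with 5 to 10 reference sites, the HpaII over MspI share was 0.515, 0.632 and 0.549 in the 786 samples and 0.432, 0.321 and 0.223 in the 769 samples. In the 1943 bins with 26 to 30 it was 0.806, 0.820 and 0.649 in the 786 samples and 0.631, 0.577 and 0.545 in the 769 samples. At the border of the rule, neighbouring classes had like values. Bins with 28 to 30 sites had 0.847, 0.798 and 0.642 in 786 and 0.594, 0.574 and 0.555 in 769, and bins with 31 to 33 had 0.798, 0.778 and 0.639 in 786 and 0.582, 0.512 and 0.532 in 769. The lines came together in denser bins, at 1.18 to 1.33 in all 6 samples in bins with 61 to 100.

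At isolated sites the course with CCGG content differed in form. In 786 the HpaII over MspI share of isolated sites was 0.598, 0.614 and 0.433 in CCGG-poor bins with 26 to 30 reference sites and 0.368, 0.361 and 0.285 in bins with over 200. In 769 it was 0.276, 0.204 and 0.171 in bins with 26 to 30 and 0.288, 0.218 and 0.127 in bins with over 200. All 3 samples of 786 were thus higher in the class with 26 to 30. In 769 both AA samples were slightly lower there and the control was higher. This order in 769 did not hold in bins with 5 to 10 sites. There the shares were 0.444, 0.532 and 0.323 in 786 and 0.307, 0.147 and 0.0966 in 769. Against bins with over 200, AA replicate 1 of 769 was higher, and AA replicate 2 and the control of 769 were lower. Bins are not replicates of a condition, so these courses are descriptions.

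**Figure D3:**
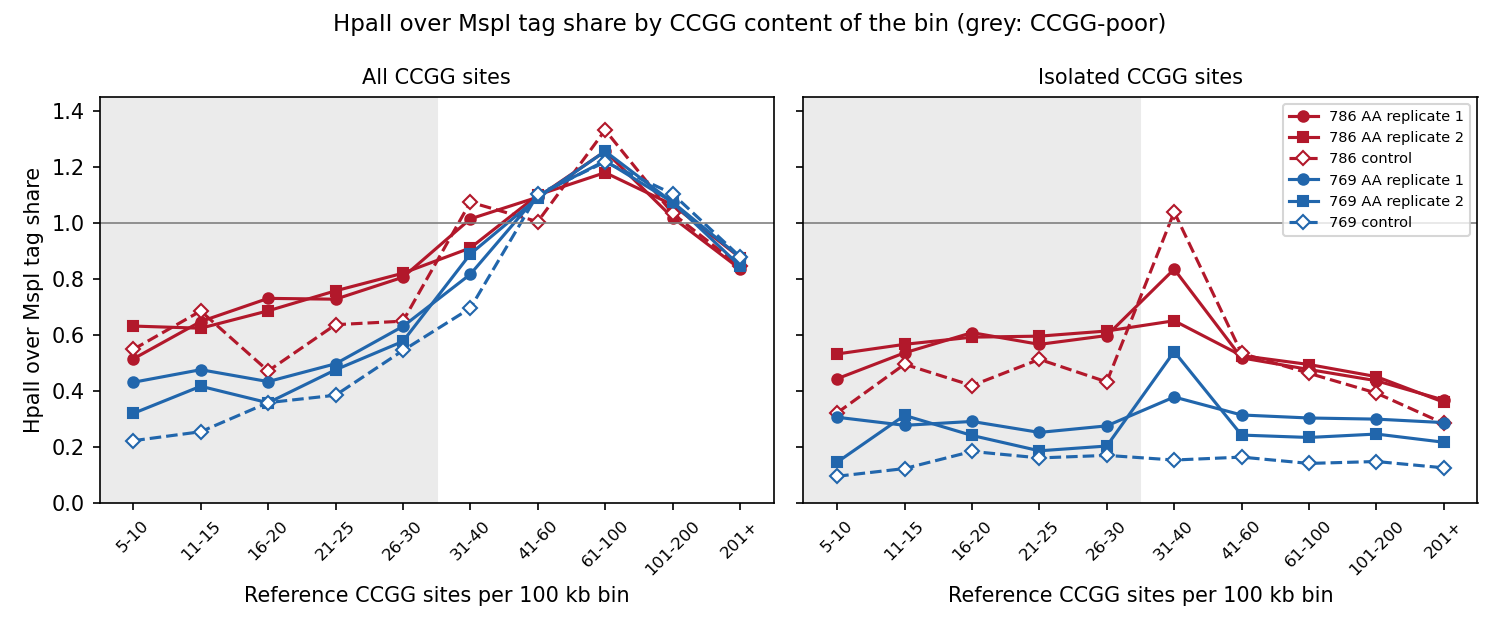
HpaII over MspI tag share (y axis, no unit, 1 is the autosomal mean) of bins by their number of reference CCGG sites (x axis, CCGG-poor classes on grey), for all sites (left) and isolated sites (right), 1 line per DNA sample, without the 5 sites over 1%. At all sites the lines separate in the CCGG-poor classes (786 at 0.472 to 0.820, 769 at 0.223 to 0.631) and meet in bins with more than 40 sites. The peak of isolated sites at 31 to 40 (1.04 in 786 control) lies outside the CCGG-poor classes.

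CCGG-poor bins were uneven over the chromosomes. They made up 43.9% of the bins of chromosome 4, 37.0% of chromosome 13 and 35.2% of chromosome 3, but 0.714% of chromosome 19 (4 bins) and 1.99% of chromosome 22 (7 bins). On the 20 chromosomes with 50 or more of them, CCGG-poor bins were compared with the remaining bins of the same chromosome. The ratio was below 1 in all 6 samples on 18 of the 20 chromosomes. The exceptions were chromosome 18, with 1.28 in 786 control, and chromosome 11, with 1.04 in 786 AA replicate 1. Medians over the 20 chromosomes were 0.746, 0.749 and 0.567 in the 786 samples and 0.497, 0.432 and 0.348 in the 769 samples.

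All 3 samples of 786 lay above all 3 of 769 on 10 of the 20 chromosomes, and the reverse held on 0. Both AA samples lay above the control on 17 chromosomes in 786 and on 13 in 769, and all 4 did on 11. Chromosome 3 gave 0.562, 0.632 and 0.468 in the 786 samples and 0.375, 0.308 and 0.239 in the 769 samples, which do not overlap. On chromosome 13 the values were 0.762, 0.730 and 0.519 in 786 and 0.352, 0.446 and 0.233 in 769, again without overlap. Chromosome 17 went another way, with 0.743, 0.833 and 0.491 in 786 and 0.444, 0.298 and 0.875 in 769, where the control was the highest of the 769 samples. The 786 control had between 16 and 273 HpaII tags per chromosome in these bins. Chromosomes of 1 sample share a library, so these counts carry no test.

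**Figure D4:**
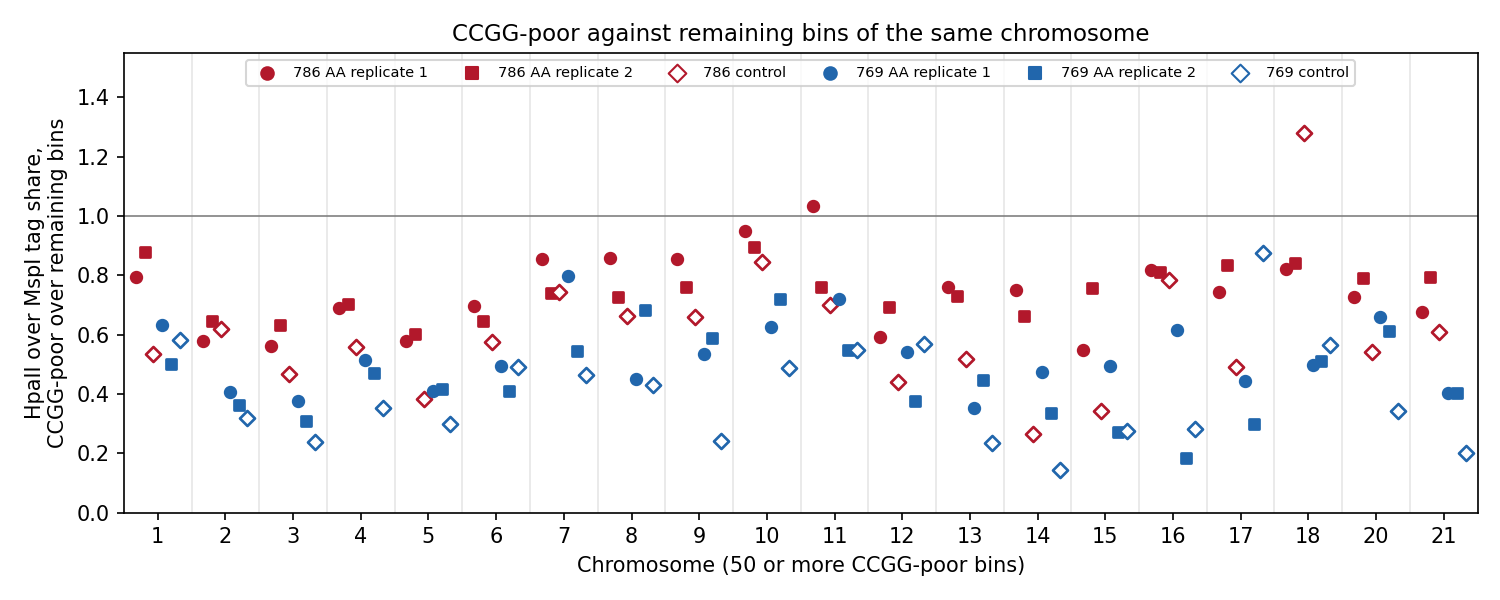
HpaII over MspI tag share of CCGG-poor bins divided by that of the remaining bins of the same chromosome (y axis, no unit), for the 20 chromosomes with 50 or more CCGG-poor bins (x axis), without the 5 sites over 1%. Points are DNA samples, red for 786 and blue for 769, filled for AA and open for control. All points but 2 lie below 1, and on 10 chromosomes every red point lies above every blue point.

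Single bins held few tags. Of the 7204 CCGG-poor bins, 693 (9.62%) passed the filter on low counts, against 73.0% of remaining bins, and the filter favours bins with HpaII tags. These 693 had a median of 25 reference sites, and 19.6% of them held a cluster of 8 or more sites per kb. In a fit over all 15052 bins that passed, edgeR's quasi-likelihood test called 2 CCGG-poor bins higher in 786 (0.289%, against 0.797% of all bins tested) and 0 lower (against 0.133%). DESeq2 called 72 (10.4%, against 7.85% of all), which turns the comparison with all bins the other way. At an unadjusted p under 0.05 edgeR had 118 (17.0%, against 14.1% of all). Of the 118, 114 were higher in 786, against 1518 of the 2128 over all bins tested. The count of called bins was 0 without 769 AA replicate 2, 1 without 786 control and 5 without 786 AA replicate 2. Groups did not overlap, with 786 higher, in 63 CCGG-poor bins (9.09%, against 9.67% of all) and with 786 lower in 14 (2.02%, against 6.78%). The median fitted log2 difference of 786 over 769 was 2.26 in CCGG-poor bins and 0.08 over all bins tested, or 1.61 and 0.09 with bins at 0 in a whole line set to a floor of 3 tags in each library of that line. This median and the counts by direction describe bins that passed on HpaII tags summed over libraries, so a bin could pass through the line where it was high. Of the 693, 144 were at 0 in every sample of 1 line, 130 of them in 769 and 14 in 786. The counts by direction are therefore no support for a difference between lines. The median was 0.43 over the 24 CCGG-poor bins with 10 HpaII tags in every library and 0.50 over the 181 tested with libraries thinned to the smallest.

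The 2 called bins were open in 786 at very few sites. The bin at chr8:115500001-115600000 had 467, 156 and 4 HpaII tags in 786 AA replicate 1, 786 AA replicate 2 and 786 control, and 1, 0 and 2 in the same 3 samples of 769. Its MspI tags numbered 158, 179 and 314 in the 786 samples and 193, 103 and 153 in the 769 samples, so MspI tags were found in every sample. The fitted log2 difference was 7.06 ± 1.39 (SE, edgeR adjusted p = 0.0328), and all its HpaII tags came from 4 isolated sites. The bin at chr7:136300001-136400000 had 601, 167 and 25 HpaII tags in the 786 samples and 5, 0 and 0 in the 769 samples, with a fitted log2 difference of 7.53 ± 1.5 (SE, edgeR adjusted p = 0.0338). Its HpaII tags came from 2 sites, 1 of which gave 74.2%.

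The next bins in rank did not pass the threshold. The bin at chr6:65900001-66000000 had 517, 65 and 4 HpaII tags in the 786 samples, all at 1 isolated site, and 0 in each of the 769 samples, where MspI found 48, 18 and 104 tags. This is at least 43.4-fold higher in 786 by the floor of 3 tags in each library (edgeR adjusted p = 0.0615). The bin at chr4:131900001-132000000 had 173, 12 and 16 HpaII tags in the 786 samples and 0 in each of the 769 samples (at least 72.6-fold higher, edgeR adjusted p = 0.0656). Without the 786 control, with its 16 tags, the bound is 21.5-fold. In the other direction the bin at chr3:167900001-168000000, with a cluster of 12 sites, had HpaII over MspI shares of 1.52, 1.12 and 1.35 in 786 and 2.73, 3.92 and 3.81 in 769 (log2 -1.45 ± 0.56, edgeR adjusted p = 0.266). The bin at chr6:142900001-143000000 had 0 HpaII tags in every 786 sample and 10, 1 and 189 in AA replicate 1, AA replicate 2 and control of 769 (edgeR adjusted p = 0.282).

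For AA against control, edgeR called 0 CCGG-poor bins higher (against 0.206% of all bins tested) and 0 lower (against 0% of all). At an unadjusted p under 0.05 there were 44 (6.35%, against 12% of all). Of the 44, 40 were higher with AA, against 1574 of the 1804 over all bins tested. DESeq2 called 14 (2.02%, against 4.03% of all). The count by edgeR was 8 without 786 control, 4 without 786 AA replicate 1, 3 without 786 AA replicate 2 and 1 without 769 control. All 4 AA samples lay above the control of their line in 106 CCGG-poor bins (15.3%, against 22.3% of all) and below it in 18 (2.60%, against 7.80%). Both controls were at 0 HpaII tags in 361 of the 693 bins. The median fitted log2 difference was therefore 2.06 as fitted but -0.93 with those bins at the floor, where the median over all bins was 0.58 and 0.11, so no direction is read from it.

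Fitted within lines, 769 had 7 CCGG-poor bins higher with AA (1.01%, against 3.55% of all tested) and 1 lower (0.144%, against 0.106%). Each of these tests sets 2 AA samples against 1 control, whose own spread is not measured and is taken from the AA pairs. The bin at chr5:147100001-147200000 had 325 and 194 HpaII tags in the AA samples of 769 and 3 in the 769 control, where MspI found 77, 63 and 259 (log2 7.11, edgeR adjusted p = 0.0223). It also had 216 and 87 in the AA samples of 786 and 0 in the 786 control, with 81, 78 and 138 MspI tags. The bin at chr10:84500001-84600000 had 235 and 93 HpaII tags in the AA samples of 769 and 0 in the 769 control, and 414 and 65 in the AA samples of 786 and 4 in the 786 control (edgeR adjusted p within 769 = 0.0255). All HpaII tags of that bin came from isolated sites. The bins with the split sites on chromosomes 7 and 17 were also among the 7 (edgeR adjusted p = 0.00109 and 0.0120). In each of the 7 bins the 769 control had the lowest HpaII over MspI share of the 3 samples of 769. The call against that 1 control largely sets this order, so it is no added support.

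Against these, the bin at chr6:69300001-69400000 fell with AA in 769, where HpaII tags numbered 117 and 120 in the AA samples and 445 in control, over 104, 49 and 10 MspI tags (log2 -5.84, edgeR adjusted p = 0.0384). In the AA samples of 786 the same bin had 376 and 125 HpaII tags, and 9 in control, without a call. Within 786, AA called 0 CCGG-poor bins higher (against 0.0797% of all) and 1 lower (against 0.246%), the bin at chr2:202300001-202400000. It had 783 and 262 HpaII tags in the AA samples of 786 and 274 in the control, where the whole library is far smaller, so its HpaII over MspI shares were 3.88 and 3.99 with AA and 134 in control. Of those 274 tags, 269 came from the site at 202316882. It was also the 1 CCGG-poor bin whose AA effect differed between lines (0.144%, lower in 786, against 0.83% of all), and 0 were higher in 786 (against 0.166%).

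CCGG-poor bins clustered along the chromosomes. They formed 3047 runs of neighbouring bins, of which 1515 were single bins and 45 had 10 or more bins. The 45 long runs held 549 bins and lay on 15 chromosomes, with 9 on chromosome 4 and 7 on chromosome 1. The longest spanned 19 bins. Isolated sites in long runs had HpaII over MspI shares of 0.652, 0.760 and 0.675 in the 786 samples and 0.208, 0.206 and 0.192 in the 769 samples. In CCGG-poor bins with no CCGG-poor neighbour the shares were 0.531, 0.563 and 0.352 in 786 and 0.302, 0.204 and 0.199 in 769. The lines were thus farther apart in the long runs than in lone bins, as a description without a test.

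Long runs varied widely. Across the 45, the HpaII over MspI share had medians of 0.665, 0.819 and 0.164 in the 786 samples and 0.232, 0.0670 and 0.0907 in the 769 samples. The highest values were 4.43, 3.52 and 3.63 in the 786 samples and 4.65, 2.98 and 2.89 in the 769 samples. No HpaII tag was found in 20 of the 45 runs in 786 control, where the median run had 1 HpaII tag, and in 11 runs in 769 control. In 11 runs all 786 samples lay above all 769 samples (24.4%, against 10.5% of the 4137 segments tested), and in 1 run they lay below (2.22%, against 7.88%).

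In the fit over 4137 segments, edgeR called 0 of the 45 long runs between lines, against 1.33% of all segments called higher in 786 and 0.0967% called lower. At an unadjusted p under 0.05 there were 16 (35.6%, against 18.2% of all segments). All 16 were higher in 786, against 542 of the 755 over all segments. DESeq2 called 17 (37.8%, against 12.6%). The count by edgeR was 5 without 786 AA replicate 2, and 3 without either of 786 AA replicate 1 and 769 AA replicate 1. The fitted log2 difference was above 0 in 36 of the 45, against 2244 of all 4137 segments. Its median was 1.88 against 0.09 over all segments, or 1.53 and 0.09 with runs at 0 in a whole line set to the floor. It was 0.26 over the 7 runs with 10 HpaII tags in every library and 1.36 over the 30 tested with thinned libraries. For AA, edgeR called 0 runs in either direction (against 0% of all segments). At an unadjusted p under 0.05 there were 8 (17.8%, against 11.2% of all), and DESeq2 called 2 (4.44%, against 2.22%). Within 769, edgeR called 0 of the runs higher with AA (against 0.943% of all segments) or lower (against 0.0242%), and within 786 it called 0 higher (against 0.218%) or lower (against 0.628%). The AA effect differed between lines in 0 runs (against 0.145% higher and 0.701% lower in 786). At an unadjusted p under 0.05 there were 8 runs within 769 (17.8%, against 16.7% of all), 9 within 786 (20%, against 13.8%) and 3 for the difference between lines (6.67%, against 14.3%). All 4 AA samples lay above the control of their line in 16 runs (35.6%, against 20.7% of all) and below it in 4 (8.89%, against 8.97%). The 786 control had no HpaII tag in 20 of the 45 runs, where no AA sample of 786 can lie below it. The part of this in the 2 counts was not tested, so no direction of AA is read from them.

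**Figure D5:**
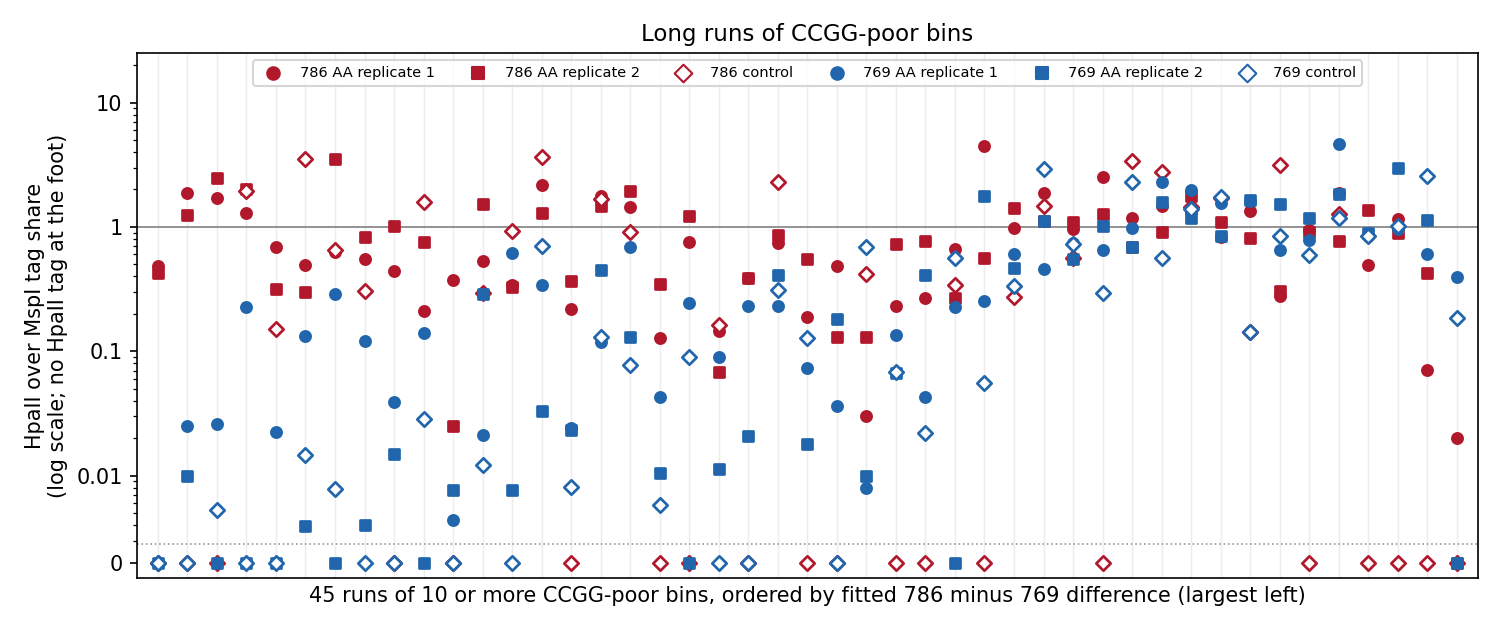
HpaII over MspI tag share (y axis, log scale, no unit, samples with no HpaII tag drawn at the foot) of the 45 runs of 10 or more CCGG-poor bins (x axis, ordered by the fitted 786 minus 769 difference, largest left). Points are DNA samples, red for 786 and blue for 769, filled for AA and open for control. Red points stand above blue ones in most runs on the left, and 20 runs have the 786 control at the foot.

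The 5 longest runs did not share a pattern. The run at chr1:72800001-74700000, of 19 bins, had HpaII over MspI shares of 1.44, 1.96 and 0.908 in the 786 samples and 0.690, 0.13 and 0.0781 in the 769 samples. The groups did not overlap, and the fitted log2 difference was 2.78 ± 0.81 (SE, edgeR adjusted p = 0.108). The run at chr7:109300001-111200000, also of 19 bins, was below the autosomal mean of 1 in every sample. Its shares were 0.488, 0.129 and 0 in 786 and 0.0365, 0.183 and 0 in 769, although MspI gave 64 to 422 tags per library. The run at chr4:32500001-34300000 had 0.188, 0.551 and 0 in 786 and 0.0740, 0.0178 and 0.129 in 769. It was likewise below 1 in every sample.

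The other 2 of the longest runs differed from each other. The run at chr1:71000001-72700000 lies 1 bin away from the longest run, and had shares of 1.34, 0.819 and 0.142 in the 786 samples and 1.61, 1.65 and 0.144 in the 769 samples. There the AA samples lay above the control in both lines (AA log2 3.34 ± 1.00, edgeR adjusted p = 0.252), and the lines overlapped. The AA samples also lay above the control of their line in both runs of 19 bins, but not in the runs on chromosomes 4 and 9. The run at chr9:23900001-25600000 had 0.210, 0.755 and 1.59 in 786 and 0.141, 0 and 0.0287 in 769, with 786 higher throughout (log2 4.26 ± 1.49, edgeR adjusted p = 0.174).

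Among long runs, those with the smallest p between lines were all higher in 786. The run at chr4:131400001-132600000, of 12 bins, had shares of 1.78, 1.47 and 1.66 in the 786 samples and 0.119, 0.448 and 0.13 in the 769 samples (log2 3.10 ± 0.70, edgeR adjusted p = 0.0515). Isolated sites gave 97.8% of its HpaII tags, and 39 sites had any. The run at chr8:112100001-113100000 had 0.556, 0.827 and 0.307 in 786 and 0.120, 0.00403 and 0 in 769 (log2 4.74 ± 1.17, edgeR adjusted p = 0.0759). MspI gave 323 to 761 tags per library there, while 769 had 49, 1 and 0 HpaII tags.

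Further runs had the same order. The run at chr18:62400001-63400000 had 511, 167 and 8 HpaII tags in the 786 samples and 60, 0 and 0 in the 769 samples (edgeR adjusted p = 0.0950). The run at chr1:191500001-192700000 had 106, 44 and 1 in 786 and 6, 0 and 0 in 769 (edgeR adjusted p = 0.0769). In the opposite direction, the single non-overlapping run, at chr1:198800001-199800000, had shares of 0.0709, 0.427 and 0 in 786 and 0.607, 1.13 and 2.57 in 769 (log2 -2.83 ± 1.60, edgeR adjusted p = 0.368).

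For AA the runs at the head of the list rested on controls with few or no HpaII tags. The run at chr13:68500001-69600000 had 263 and 111 HpaII tags in the AA samples of 786 and 0 in the 786 control, and 10 and 2 in the AA samples of 769 and 0 in the 769 control. MspI gave 358, 180 and 305 tags in the 786 samples and 204, 175 and 609 in the 769 samples (edgeR adjusted p for AA = 0.293). The run at chr7:85300001-86400000 had 925 and 308 HpaII tags in the AA samples of 786 and 0 in the 786 control, and 126 and 83 in the AA samples of 769 and 74 in the 769 control (edgeR adjusted p = 0.367). In the other direction the run at chr1:106200001-107200000 had shares of 0.0303 and 0.13 in the AA samples of 786 and 0.416 in the 786 control, and 0.00791 and 0.01 in the AA samples of 769 and 0.696 in the 769 control (edgeR adjusted p = 0.265).

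Of the 5 CCGG-poor bins most open to HpaII by their mean share, 3 held a cluster of sites. The bin at chr1:220700001-220800000 had 17 of its 19 listed sites in a cluster, and HpaII over MspI shares of 8.47, 3.53 and 2.60 in the 786 samples and 3.03, 1.69 and 11.1 in the 769 samples. The bin at chr10:93100001-93200000 had a cluster of 6 listed sites and shares of 0.994, 3.10 and 3.90 in 786 and 2.58, 20.5 and 0.651 in 769. The 20.5, in 769 AA replicate 2, rests on only 19 MspI tags. The third was the bin on chromosome 2 described above, with 18 clustered sites. The other two had no cluster. The bin at chr6:69300001-69400000 reached 99.5 in the 769 control over 10 MspI tags, and the bin at chr5:58400001-58500000 reached 27.1 in the 769 control over 23 MspI tags but had 0 HpaII tags in the 786 control. Both of these values rest on few MspI tags.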

How the data were processed

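HELP-tagging libraries were made by the study from 6 DNA samples of 2 lines, each digested with HpaII and with MspI, with 18 cycles of PCR per the labels' protocols, which name no molecular identifiers. The deposited files list, per library, the expected count of tags at each CCGG site; the authors did not normalize these counts as far as the file totals show. Sites with counts that are not whole (tolerance 1e-06) may hold tags shared between places of alignment. The submitters' processing notes name hg19 as the build, and which aligner was used is not stated in the sources at hand. The bins, lists and contrasts were chosen with earlier results of these data known.

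The 12 files were joined by site, giving 1019951 sites, 966075 of them autosomal. Autosomal library totals were the denominators of all shares. A site's local number was the span of site numbers from the first to the last listed site within a centred window of 1 kb. Sites without a tag at the edges of the window are therefore missed. Contrasts over samples used exact two-sided permutation tests. For bins and for runs, expected counts were summed, rounded to whole numbers and fitted with edgeR 4.0.16 (R 4.3.3; quasi-likelihood, TMM within each enzyme, Benjamini-Hochberg over all features) with terms for DNA sample, enzyme, enzyme by line and enzyme by treatment; a second fit had treatment within line. Features needed 10 MspI tags in each MspI library and 10 HpaII tags in all; called means an adjusted p under 0.05. Runs of remaining bins were cut to at most 10 bins. DESeq2 1.42.0 was an alternative. On simulated counts with 200 features changed 8-fold between lines, the bin fit (15052 bins) recovered 94.5% with 12 false calls of 201, and the run fit (4137 segments) recovered 97.5% with 10 false calls of 205. The simulated counts had a set spread that was not taken from the data. Changes were planted only in features above a least mean of HpaII tags. These rates therefore do not give the power of the fits in CCGG-poor bins. Regions are named by rank: the 5 longest runs, the 5 largest or best-ranked differences in each direction whose samples did not overlap, and the 5 bins with the highest mean share; the text describes the main ones. The tables for genes were of another build and were not used.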

Additional observations from a re-analysis of the deposited data

Results flagged for a closer look

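At isolated sites of CCGG-poor bins relative to remaining bins, without the 5 sites over 1%, the AA samples lay above the control in 786 and below it in 769. The ratio was 1.22 and 1.28 in AA-treated 786 and 1.02 in the 786 control, and 0.902 and 0.840 in AA-treated 769 and 1.12 in the 769 control. The log2 effect in 786 minus that in 769 was 0.658 (exact permutation p = 0.11, the smallest that 9 arrangements allow). At sites with whole counts alone the difference was 0.531 (exact permutation p = 0.11). With every site counted, AA samples averaged above the control in both lines, at 1.29-fold in 786 and 1.23-fold in 769, and the difference was 0.06 (exact permutation p = 1). The 786 control holds 1175 HpaII tags at these sites. With libraries thinned to the smallest, the ratio was 1.16 and 1.29 in AA-treated 786 and 1.03 in the 786 control, and 0.892 and 0.848 in AA-treated 769 and 0.989 in the 769 control.

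The bin at chr2:202300001-202400000 was singled out because its AA effect differed between the lines, by -4.38 on the log2 scale, 786 minus 769 (edgeR quasi-likelihood, adjusted p = 0.00721). Of the 274 HpaII tags of the bin in 786 control, 269 lay at 1 site, which had 0 and 42 HpaII tags in the AA samples of 786. Each line has 2 AA samples and 1 control, so the control arm has no spread of its own. The value rests on that site in 1 library.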

How the results depend on the processing

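Values are log2 ratios or differences unless said to be counts, and leaving out sites over 1% was among the settings listed at the start, whereas repeating the other settings without these 5 sites was chosen after seeing the data.

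CCGG-poor over remaining bins at all sites (-0.35) passed the threshold with bins of 5 to 20 reference sites (-1.01), reference sites counted to the next bin (-0.807), whole counts only (-0.739), sites with a tag in place of tags (-0.805) and without the 5 sites (-0.802); leaving out 1 DNA sample gave -0.512 to -0.179. Without the 5 sites, leaving out 1 sample gave -0.878 to -0.708, where the smallest exact p that 5 samples allow misses the threshold. At isolated sites (1.03) the same 5 alternatives missed it, at 0.075, 0.47, 0.162, 0.04 and 0.0734 in that order (0.905 to 1.13 leaving out 1 sample). The difference between lines there (0.10) turned to -0.351 with sites counted to the next bin and ran from -0.175 to 0.432 leaving out 1 sample, negative without 786 AA replicate 1, 769 AA replicate 1 (-0.14) or 769 control (-0.00558). That of AA (0.33) turned to -0.48 with sites counted to the next bin, -0.068 with whole counts and -0.0317 without the 5 sites. Without the 5 sites, isolated sites (0.0734) reached 0.478 with bins of 5 to 40 and turned to -0.218 at sites with 10 or more MspI tags, and the AA difference (-0.0317) turned to 0.112 with bins of 5 to 20, 0.149 with sites with a tag, 0.101 at sites with 10 or more MspI tags and 0.0319 with libraries thinned to the smallest (-0.36 to 0.297 leaving out 1 sample).

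Bins called between lines (2) numbered 72 with DESeq2, 22 with no filter, 0 with 10 HpaII tags in every library, 11 with HpaII alone, 1 with bins of 5 to 20, 5 with bins of 5 to 40, 4 with whole counts, and 0 to 5 leaving out 1 sample. Bins called for AA (0) numbered 14 with DESeq2, 5 with no filter, 1 with 10 HpaII tags in every library, 2 with thinned libraries, and 0 to 8 leaving out 1 sample. Runs called between lines (0) numbered 1 without TMM, 1 with TMM over 12 libraries, 17 with DESeq2, 9 with no filter, 1 with 10 HpaII tags in every library, 1 with thinned libraries, 6 with HpaII alone, 7 with bins of 5 to 40, 5 with whole counts, and 0 to 5 leaving out 1 sample. Runs called for AA (0) numbered 2 with DESeq2. The cause of these changes was not tested.

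Samples with the same replicate number did not deviate together (r = -0.0129 over 15052 bins), so the numbers pair nothing by the data. A replicate block gave 13 bins and 6 runs called between lines and 3 bins and 0 runs for AA, and differences between lines of 0.592 at all sites and 0.569 without the 5 sites. The HpaII depth of 786 control limits every value that uses it.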

Other observations

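Bins with fewer than 5 reference sites, which are among the remaining bins, numbered 590. Their HpaII over MspI shares were 0.620, 0.668 and 0.843 in 786 AA replicate 1, 786 AA replicate 2 and 786 control, and 0.235, 0.272 and 0.0772 in the same 3 samples of 769. The lines did not overlap there, but the values of the 786 and 769 controls rest on only 46 and 134 HpaII tags.

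Just above the limit of 30 reference sites, the isolated sites of bins with 31 to 40 stood out, with HpaII over MspI shares of 0.835, 0.651 and 1.04 in the 786 samples and 0.379, 0.541 and 0.155 in the 769 samples. The site at position 49456928 of chromosome 2, again with counts that are not whole, held 39.8%, 18.1% and 56.7% of the HpaII tags of that class in the 786 samples and 22.5%, 62.0% and 17.9% in the 769 samples. Without it the class had 0.553, 0.588 and 0.532 in 786 and 0.302, 0.233 and 0.144 in 769. It lies outside the CCGG-poor bins and is 1 of the sites of remaining bins in every comparison above.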
